A study of Mus musculus with 2 samples.

Results

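The SLAM family receptors are 9 genes of mouse chromosome 1: Slamf1, Cd48, Ly9, Cd244, Cd84, Slamf6, Slamf7, Slamf8 and Slamf9. They were found by gene name among the spots of both scanner files, which gave all 9 genes with 15 probes, 1 spot each, of 41170 probes in all. Of the 9 genes, 8 were among the 17019 genes measured on both arrays. The current RefSeq symbol of Cd244 is Cd244a, and the name in the files is kept here. The study compared PAD4-deficient (PAD4-/-) with wild-type LSK cells, both from C57BL/6 mice, with 1 array for each genotype. LSK cells are bone marrow cells without lineage markers that carry Sca-1 and c-Kit on the surface, and they were isolated by flow cytometry. PAD4 is an enzyme that turns arginine residues of proteins, histones among them, into citrulline. Whether the cells of an array came from 1 mouse or several, the sex of the mice, and which part of Padi4 was deleted are not stated in the labels used here.

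SLAM receptors are immunoglobulin-type surface proteins of blood cells, and most of them bind to a copy of themselves on a neighbouring cell. CD48 and 2B4, the product of Cd244, differ in that they bind each other. Within LSK cells these receptors are used to sort subsets: stem cells carry CD150, the product of Slamf1, and lack CD48, while most multipotent progenitors have gained CD48, some with and some without CD150. CD229, the product of Ly9, and 2B4 are likewise low on stem cells and are gained by progenitors. In the usual scheme the megakaryocyte and erythroid primed fraction (MPP2) carries both CD150 and CD48, the myeloid primed fraction (MPP3) carries CD48 without CD150, and the lymphoid primed fraction (MPP4) carries CD48 and Flt3 without CD150. These markers are read on the cell surface as protein, whereas the arrays measured RNA of the whole LSK population.

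A single array per genotype allows no test between the genotypes. Each value below is a processed signal, the brightness of a spot after background subtraction, and each difference is PAD4-deficient minus wild-type on the log2 scale after scaling each array to its 75th percentile. The error beside a difference is the scanner's own error of the spots and leaves out the spread between mice. For bright single spots it was about 0.20 whichever the gene. Probes printed more than once and well above background varied less between their spots on an array. Their median standard deviation was 0.051 in PAD4-deficient and 0.057 in wild-type cells, on the log2 scale. A probe was measured where the scanner software called it well above background on both arrays. Of 41170 probes, 64.1% passed that call in PAD4-deficient cells and 63.9% in wild-type cells, and the lowest such signals were 18.5 and 17.7. The 3 probes of Padi4 had 21.2% to 24.2% of the wild-type level in PAD4-deficient cells, and whether these probes lie in the deleted part is not known. The arrays also differed in sex-linked RNA. The brightest probe of Xist had 16255 in PAD4-deficient cells and 3.93, not well above background, in wild-type cells. The brighter probe of the Y-linked Ddx3y had 1297 in PAD4-deficient and 3455 in wild-type cells (-1.36), well above background on both arrays. The PAD4-deficient array thus held both Xist and Y-linked RNA. Genotype, sex-linked RNA and array cannot be told apart in this design. The RNA of the sorted surface markers was present on both arrays, with signals of 9458 in PAD4-deficient and 9342 in wild-type cells for Kit (c-Kit) and of 2312 and 2637 for Ly6a (Sca-1).

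Across the family, 5 genes lay within 1.5-fold between the genotypes, the 4 receptors used to sort LSK subsets among them. Slamf7, the gene not measured on both arrays, was well above background only in PAD4-deficient cells. At a threshold of 1.5-fold, 2 of the 8 measured genes were higher in PAD4-deficient cells (Slamf6 and Slamf8) and 1 was lower (Slamf9). Those within 1.5-fold were Slamf1, Cd48, Ly9, Cd244 and Cd84. Over all 17019 measured genes, 2.88% passed the threshold as higher and 1.87% as lower in PAD4-deficient cells. Dim genes passed this threshold more often: of the 5521 measured genes with a geometric mean signal under 200, a limit chosen after the values were seen, 6.74% were higher and 3.5% lower. The 3 family members past the threshold all belonged to these dim genes, as did Slamf1. The median difference of the 8 genes was 0.18, against 0.02 over all measured genes. Of the 8 genes, 5 lay above 0, as did 55.0% of all measured genes.

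**Figure D1:**
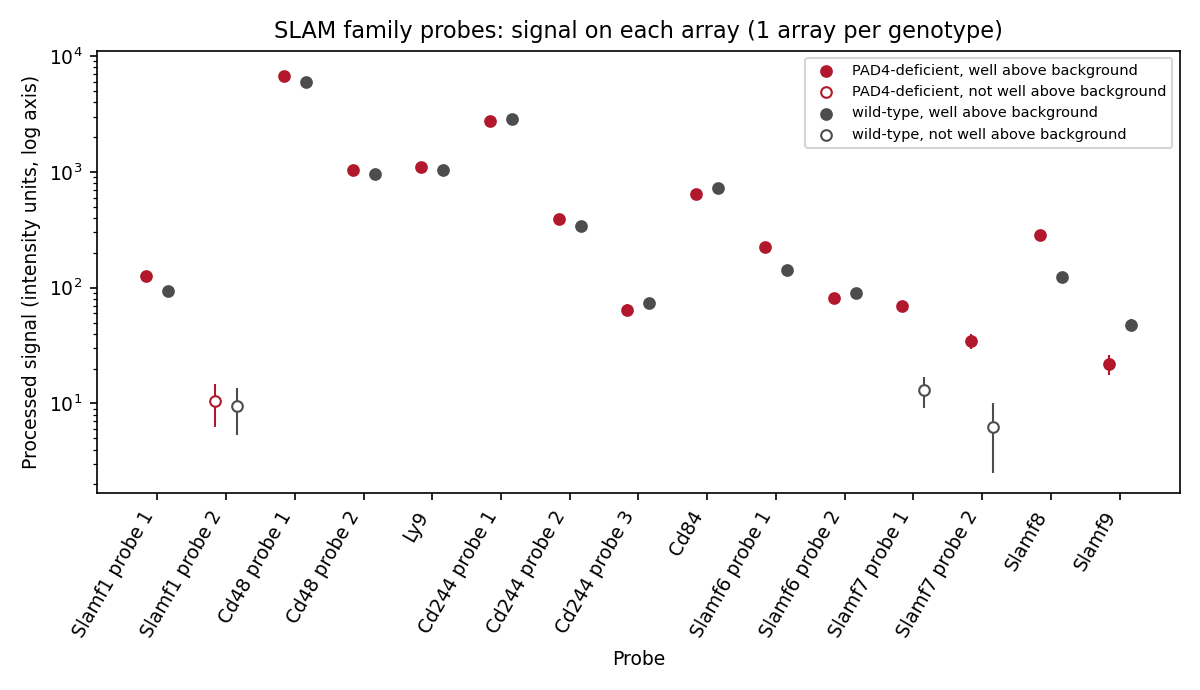
Processed signal (vertical axis, logarithmic, intensity units) of the 15 SLAM family probes on the PAD4-deficient array (red) and the wild-type array (grey), with the scanner error as bars and open circles for spots not well above background. The symbols of a pair lie close together for Cd48, Ly9, Cd244 and Cd84 and stand apart for both Slamf7 probes, Slamf8 and Slamf9; heights of different probes are not comparable.

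Slamf1 encodes CD150, the receptor that marks stem cells and the megakaryocyte and erythroid primed fraction. Its measured probe lay at 173636887 to 173636946 of mm8 chromosome 1. The signal there was 125 ± 13.1 in PAD4-deficient cells and 93.9 ± 10.2 in wild-type cells (scanner error, 1 array each). PAD4-deficient cells were thus higher by 0.47 on the log2 scale with an error of 0.22, or 138% of the wild-type level, which is under the 1.5-fold threshold and a little over 2 errors. The raw spot mean was 194 against a local background of 44.0 on the PAD4-deficient array, and 159.5 against 44.5 on the wild-type array. The other probe, whose coordinates span 4319 bases of the genome where the first spans 60, had 10.5 and 9.46 and was well above background on neither array. The Slamf1 value therefore comes from a single dim spot on each array.

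Cd48 encodes CD48, an adhesion molecule held on the membrane by a lipid anchor, which progenitors gain as they leave the stem cell state. The brighter of its probes (chromosome 1, 173541651 to 173541709) had a signal of 6774 ± 677 in PAD4-deficient cells and 5926 ± 593 in wild-type cells. This is a difference of 0.24 with an error of 0.20. The second probe had 1044 ± 104 and 957.5 ± 95.8, a difference of 0.17 with an error of 0.20. Both probes lay slightly above 0, by about the size of the scanner error.

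Cd244 encodes 2B4, the receptor for CD48, known from natural killer cells. Its 3 probes did not share a direction. The brightest had 2747 ± 275 in PAD4-deficient cells and 2861 ± 286 in wild-type cells, a difference of -0.01 with an error of 0.20. The second had 393.6 ± 39.6 and 338.5 ± 34.1, a difference of 0.27 with an error of 0.21, and the dimmest had 64.7 ± 7.67 and 73.6 ± 8.47, a difference of -0.14 with an error of 0.24. None of them reached 1.5-fold, and the differences of the probes overlapped within their errors.

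Ly9, which encodes CD229, was measured by 1 probe (chromosome 1, 173425288 to 173425334, minus strand). Its signal was 1098 ± 110 in PAD4-deficient cells and 1042 ± 104 in wild-type cells, a difference of 0.12 with an error of 0.20. Cd84, a receptor of platelets, B cells and myeloid cells that binds itself, had 647.4 ± 64.8 in PAD4-deficient cells and 718.9 ± 72.0 in wild-type cells. Its difference was -0.10 with an error of 0.20. Both differences thus lay within the scanner's error.

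The 4 receptors used to divide LSK cells were also set against each other within the arrays. The difference of Slamf1 exceeded that of Cd48 by 0.22 with an error of 0.30, that of Ly9 by 0.34 with an error of 0.30, and that of Cd244 by 0.48 with an error of 0.30. Between Cd48 and Cd244 the gap was 0.25 with an error of 0.29. No gap reached 2 of these scanner errors, so by that error a shift of Slamf1 was not separated from the shifts of the receptors that progenitors gain. In a bulk sample, a change in the number of cells that carry a receptor and a change in its RNA per cell cannot be told apart.

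The sequences before the start sites of Cd48 and Cd244 are shown because these genes encode a receptor and its ligand, were bright on both arrays and stayed within 1.5-fold. Each is the 250 bases upstream of the RefSeq start (GRCm38.p6, plus strand, chr1:171681742-171681991 for Cd48 and chr1:171558943-171559192 for Cd244), in lower case with matches to any of 6 motifs in capitals.
Cd48: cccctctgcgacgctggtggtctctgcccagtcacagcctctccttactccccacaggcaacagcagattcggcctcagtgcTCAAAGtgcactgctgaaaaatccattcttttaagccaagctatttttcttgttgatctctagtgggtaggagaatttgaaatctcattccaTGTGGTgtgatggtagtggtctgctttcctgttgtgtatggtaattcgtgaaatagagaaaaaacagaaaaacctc
Cd244: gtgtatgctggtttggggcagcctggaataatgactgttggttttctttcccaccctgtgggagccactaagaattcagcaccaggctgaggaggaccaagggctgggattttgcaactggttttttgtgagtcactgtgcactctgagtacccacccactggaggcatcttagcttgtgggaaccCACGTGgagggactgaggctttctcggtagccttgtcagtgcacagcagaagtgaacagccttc
The motifs, searched on both strands, were AGATAA (the site of GATA factors), GAGGAA (an ETS core as bound by PU.1), TGTGGT (RUNX), CACGTG (the E-box of MYC and USF factors), CTTTGA (LEF and TCF factors) and TATAAA (the TATA box). Of 32851 promoter windows of this length in the RefSeq table, 9.99% held AGATAA, 23.3% GAGGAA, 14.05% TGTGGT, 6.02% CACGTG, 13.8% CTTTGA and 12.4% TATAAA, and no match overlapped another in the sequences shown here. The Cd48 window held 1 match to CTTTGA, on the minus strand, and 1 to TGTGGT. The Cd244 window held 1 match, to CACGTG.

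Slamf6 encodes Ly108, a receptor of T, B and natural killer cells. Its probes disagreed. The brighter one, whose coordinates span 1329 bases, had 222.3 ± 22.7 in PAD4-deficient cells and 142 ± 15.0 in wild-type cells, a difference of 0.69 with an error of 0.21. The other had 81.7 ± 8.97 and 89.8 ± 9.68, a difference of -0.09 with an error of 0.22. The gene counts as higher through its brighter probe, and the mean of both probes gave 0.30, under 1.5-fold. It was also under 1.5-fold, at 0.54, with normexp, a model-based background correction used here with an offset that shrinks the differences of dim spots.

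Slamf7 encodes CRACC (CD319), a receptor of natural killer cells, plasma cells and activated macrophages. Its first probe (chromosome 1, 173475843 to 173475902, minus strand) had 69.5 ± 7.89 in PAD4-deficient cells and 12.9 ± 3.84 in wild-type cells, and only the first was well above background. Its second probe had 34.6 ± 5.14 and 6.29 ± 3.78, again well above background only in PAD4-deficient cells. Set against the lowest wild-type signal that passed the background call, the PAD4-deficient level was at least 4.07-fold higher by the first probe and at least 2.03-fold higher by the second. The log2 values as measured were 2.47 with an error of 0.46 and 2.51 with an error of 0.89. With normexp the value as measured at the first probe shrank to 0.89 on the log2 scale, against 2.47 otherwise. Its bound was then the same 0.89, against 2.02 otherwise. Without the offset, normexp gave 1.70 as measured. Both probes thus pointed the same way, from spots whose raw means were 144 and 107 in PAD4-deficient cells and 82.2 and 76.0 in wild-type cells, over local backgrounds of 43.0 to 48.0. Of 628 genes that passed the background call in PAD4-deficient cells alone, 45.1% had an at-least fold of 1.5 or more.

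Slamf8, which encodes BLAME, a receptor of macrophages and other myeloid cells, was measured by 1 probe (chromosome 1, 174418611 to 174418670, minus strand). Its signal was 284.3 ± 28.7 in PAD4-deficient cells and 125 ± 13.0 in wild-type cells. The difference was 1.24 with an error of 0.21, or 2.36-fold, and it was 0.93 with normexp. Slamf9, which is expressed in myeloid and plasmacytoid dendritic cells, was also measured by 1 probe (chromosome 1, 174314999 to 174315058). Its signal was 21.9 ± 4.31 in PAD4-deficient cells and 47.9 ± 5.99 in wild-type cells, a difference of -1.08 with an error of 0.34, or 47.3% of the wild-type level. The PAD4-deficient signal lay just above the lowest signal of 18.5 that was well above background there, and normexp gave -0.26 with the offset and -0.53 without it, so the size of this difference depended on the background correction. Slamf8 and Slamf9 lay on opposite sides of 0, and the gap between their differences was 2.32 with an error of 0.40.

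**Figure D2:**
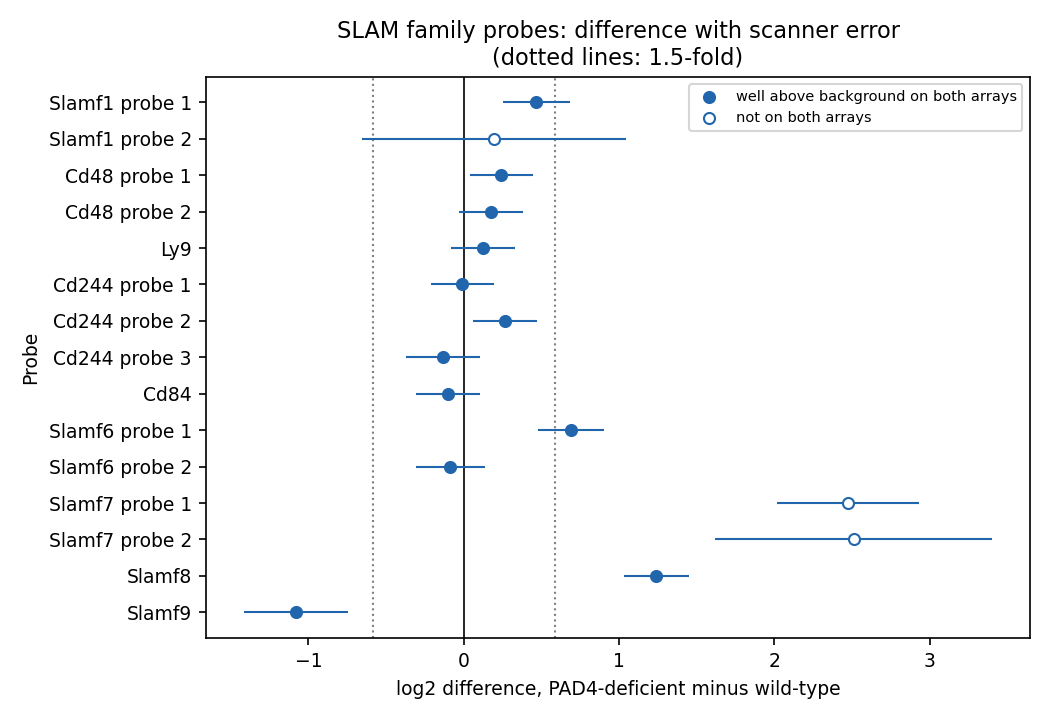
Difference between PAD4-deficient and wild-type cells (horizontal axis, log2) for each SLAM family probe, with the scanner error as bars, open circles for probes not well above background on both arrays, and dotted lines at 1.5-fold. The measured probes of Slamf1, Cd48, Ly9, Cd244 and Cd84 lie between the dotted lines, the Slamf6 probes lie on opposite sides of 0, Slamf7 (plotted as measured, not as a lower bound) and Slamf8 lie to the right, and Slamf9 lies to the left.

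The windows before Slamf8 and Slamf9 are shown for the measured members that lay farthest apart. They are printed in the same way (GRCm38.p6, chr1:172590569-172590818 on the minus strand for Slamf8 and chr1:172475110-172475359 on the plus strand for Slamf9).
Slamf8: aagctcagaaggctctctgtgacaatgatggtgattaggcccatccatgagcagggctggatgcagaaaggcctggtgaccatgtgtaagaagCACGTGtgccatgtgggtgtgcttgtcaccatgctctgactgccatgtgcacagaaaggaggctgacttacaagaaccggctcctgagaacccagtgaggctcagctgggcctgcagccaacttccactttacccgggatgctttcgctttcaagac
Slamf9: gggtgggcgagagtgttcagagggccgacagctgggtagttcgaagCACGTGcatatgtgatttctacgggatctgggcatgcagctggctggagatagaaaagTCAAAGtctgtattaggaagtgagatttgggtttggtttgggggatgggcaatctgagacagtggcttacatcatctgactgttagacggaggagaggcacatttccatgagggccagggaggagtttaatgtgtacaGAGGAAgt
Both held 1 match to CACGTG, and Slamf9 also held 1 to CTTTGA, on the minus strand, and 1 to GAGGAA. With Cd244, 3 of the 8 family windows in the table held CACGTG. These 3 genes had differences of 1.24 (Slamf8), -1.08 (Slamf9) and -0.01 (Cd244), so they did not share a direction. The windows of Slamf1, Slamf6 and Slamf7 held none of the 6 motifs, and that of Cd84 held 1 match to TGTGGT.

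The SLAM genes were also read against their neighbours, since all 9 lie on chromosome 1. The probes of Slamf9 and Slamf8 lay 678 and 782 kb from that of Slamf1, with other genes between them and the main cluster. The list of 34 other genes around them had 26 measured members, with 10 above and 16 below 0 and a median of -0.06. Over all measured genes, 55.0% lay above 0. At 1.5-fold, 1 neighbour was higher and 2 were lower, against 2.88% higher and 1.87% lower over all measured genes. These neighbours were all among the dim genes, of which 6.74% were higher and 3.5% lower. The higher one was Nr1i3, a nuclear receptor, at 0.61 with an error of 0.21. The lower ones were Adamts4, a protease of the extracellular matrix, with 95.4 in PAD4-deficient cells and 300.4 in wild-type cells (-1.61, error 0.21), and Nectin4, an adhesion molecule, at -0.74 with 0.03 at its second probe. The genes next to the main cluster, which leaves out Slamf8 and Slamf9, differed little. F11r, a junction adhesion molecule, differed by -0.25 and Vangl2, a planar polarity protein, by -0.03, both with errors of 0.20. Itln1 was well above background on neither array. Higher and lower values were interspersed among the measured neighbours on the F11r side. On the Vangl2 side they lay below 0 except Igsf8 (0.09). These were within their errors, except for the dim gene Ncstn (-0.53, error 0.24).

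**Figure D3:**
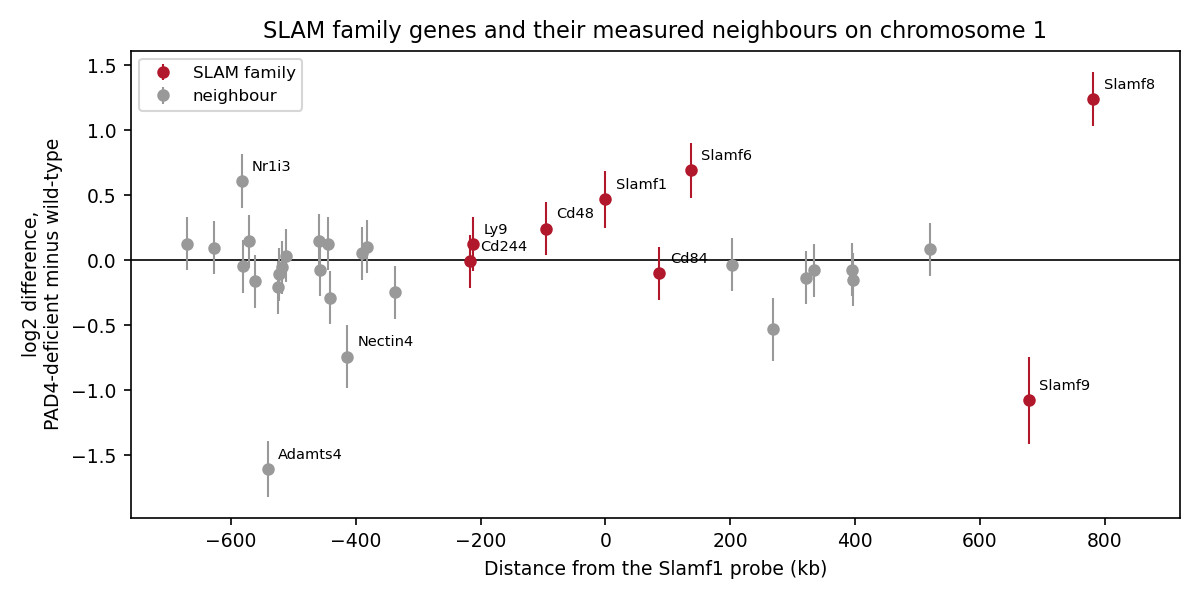
Difference between PAD4-deficient and wild-type cells (vertical axis, log2, scanner error as bars) of the 8 measured SLAM family genes (red) and their 26 measured neighbours (grey) by distance from the Slamf1 probe in kilobases on chromosome 1. Slamf8 and Slamf9, at the right end, lie on opposite sides of 0, while most neighbours lie within their error of 0.

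SLAM receptors signal through small adaptors, SAP (Sh2d1a), which couples the receptor tail to the kinase Fyn, and EAT-2 (Sh2d1b1), which acts without Fyn through phospholipase C gamma, and through phosphatases. SAP was well above background on neither array, as was Cd2, another partner of CD48. EAT-2 was at the limit of detection, with a signal of 17.5 in PAD4-deficient cells, not well above background, and 21.2 in wild-type cells. Fyn had 228.4 and 236.2, a difference of 0.00 with an error of 0.07. Of the phosphatases, Ptpn6 (SHP-1) differed by -0.31, with -0.85, past 1.5-fold, at its second probe. Inpp5d (SHIP-1) differed by -0.33 and Ptpn11 (SHP-2) by -0.05, with -0.04 to 0.05 at its other probes, and the errors of the 3 genes were 0.20. Of the 14 measured genes of the adaptor and signalling list, 11 were below and 3 above 0, with a median of -0.14. Over all measured genes, 55.0% lay above 0. None of the listed genes passed 1.5-fold by the probe used for the gene. Plcg1, a phospholipase C gamma, differed by -0.24 at that probe, with -0.79, past 1.5-fold, and 0.03 at its other probes.

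The subset gene lists give the setting for Slamf1, Cd48 and Cd244. The 25 stem cell subset genes were all measured and had a median of -0.02, with 11 above and 14 below 0. Over all measured genes, 55.0% lay above 0. At 1.5-fold, 3 of the stem cell subset genes were higher and none was lower. The higher ones included Trpc6 (0.74), a cation channel, and Sult1a1 (0.72), a sulphotransferase. Procr, a surface receptor of stem cells, had 6764 in PAD4-deficient cells and 9123 in wild-type cells, a difference of -0.38 with an error of 0.20, while Slamf1, the other surface marker of stem cells, differed by 0.47. The stem cell surface markers Slamf1 and Procr thus lay on opposite sides of 0.

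Genes of the primed progenitor fractions did not all differ in the same direction. Of 19 measured megakaryocyte and erythroid primed genes, of the fraction that carries both CD150 and CD48, 9 passed 1.5-fold as higher and none as lower. Their median was 0.54. Ermap, of the red cell membrane, had 179 in PAD4-deficient and 32.4 in wild-type cells (2.52, error 0.28). Rhd, a blood group protein, had 241 and 62.8 (1.99, error 0.22), and both were among the dim genes. Itga2b, an integrin of the same lineage, was lower by -0.43 with an error of 0.20. Of 19 measured myeloid primed genes, 7 passed as higher and none as lower, with a median of 0.37, and the granule protease Elane and the myeloid membrane protein Ms4a3 differed by 1.92 and 1.79. Of 19 measured lymphoid primed genes, 3 passed as higher and 2 as lower, with a median of 0.00. Flt3, which divides the CD48-positive cells into lymphoid and myeloid primed fractions, had 1481 in PAD4-deficient cells and 2439 in wild-type cells (-0.67, error 0.20), and the chemokine receptor Ccr9 differed by -0.67. Rag1, of the antigen receptor recombinase, differed by 1.14 and Gpr183, a receptor that guides lymphocyte migration, by 0.79. Cd34 and Cd27, 2 further surface markers of progenitors, differed by -0.10 and -0.11, within their errors of 0.20. The gate and subset surface marker list, 4 of whose 15 genes are Slamf1, Cd48, Cd244 and Ly9, had 7 genes above and 8 below 0. Its genes past 1.5-fold were Flt3, which was lower, and 2 that were higher: Fcgr3, a myeloid Fc receptor, with 462.7 in PAD4-deficient cells and 232.8 in wild-type cells (1.04, with 0.63 at its second probe), and the lymphoid cytokine receptor Il7r (0.65, with 0.04 at its second probe). The stem cell and primed progenitor lists share no gene with the family. Their background is 2.88% of all measured genes higher and 1.87% lower, and 6.74% and 3.5% of the dim ones. Of all measured genes, 55.0% lay above 0.

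**Figure D4:**
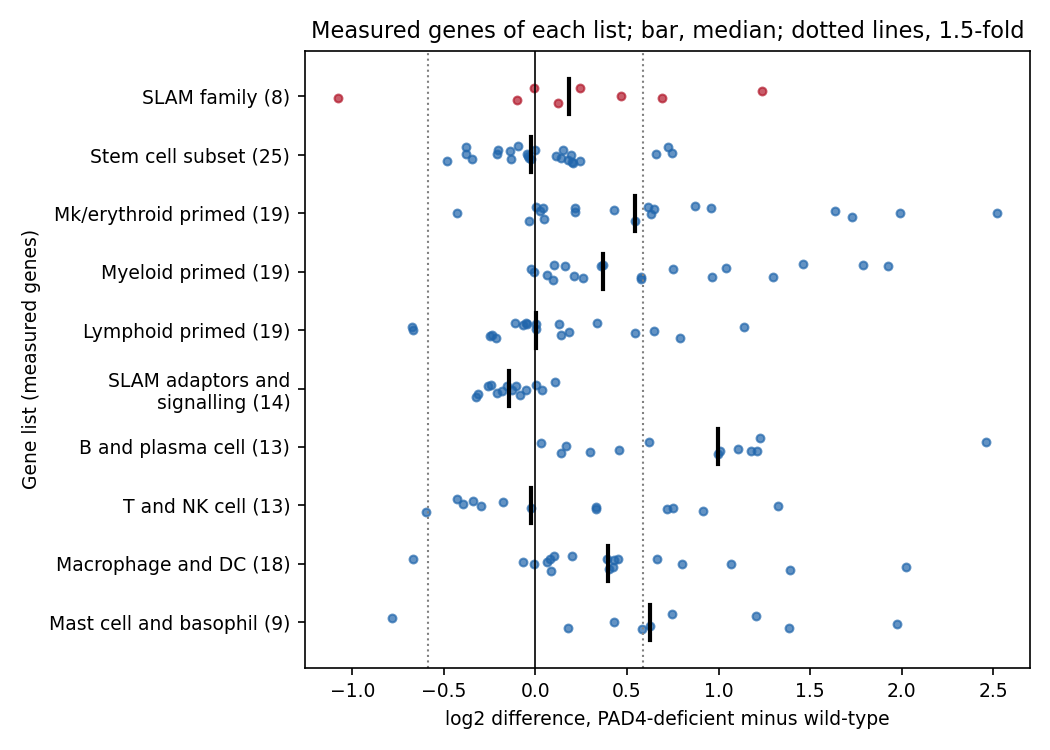
Difference between PAD4-deficient and wild-type cells (horizontal axis, log2) of each measured gene of the SLAM family (red) and of 9 other lists (blue), with the number of measured genes in brackets, black bars for medians and dotted lines at 1.5-fold. The SLAM family median is 0.18, and the medians range between -0.14 for the adaptor and signalling list and 0.998 for the B and plasma cell markers.

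Lists of markers of mature cells were read on the same arrays. Their background is 2.88% of all measured genes higher and 1.87% lower by 1.5-fold, and 6.74% and 3.5% of the dim ones. Of all measured genes, 55.0% lay above 0. Of 16 B and plasma cell markers, 13 were measured, all above 0 and 8 of them past 1.5-fold, with a summed signal of 22617 in PAD4-deficient cells and 14616 in wild-type cells. Jchain, which joins antibody chains, differed by 2.46, and Pax5, the B cell transcription factor, by 1.23. Tnfrsf17, a plasma cell receptor, was at least 3.06-fold higher, and Blk was not well above background on either array. Among the 628 genes that passed the background call in PAD4-deficient cells alone, 45.1% had an at-least fold of 1.5 or more. Of 20 macrophage and dendritic cell markers, 18 were measured, with 5 past 1.5-fold as higher and 1, Flt3, as lower. Their summed signals were 34401 in PAD4-deficient cells and 21487 in wild-type cells. The class II antigen presentation genes H2-Ab1, Cd74 and H2-Eb1 gave 15322, 9269 and 3560 of the first sum. They gave 9093, 4580 and 1408 of the second. Batf3, a dendritic cell transcription factor, differed by 2.02 and H2-Eb1 by 1.39. The macrophage complement genes C1qa and C1qb differed by 0.08 and -0.07. Siglech, of plasmacytoid dendritic cells, was well above background on neither array.

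Of 20 T and NK cell markers, 13 were measured, with 6 above and 7 below 0 and a median of -0.02. Their summed signals were 19823 in PAD4-deficient cells and 21435 in wild-type cells, of which Nkg7, also on the myeloid primed list, gave 16115 and 16948. At 1.5-fold, 4 were higher and 1 lower: the NK receptor gene Klrk1 differed by 1.33 and Il2rb by 0.91, and Prf1, perforin, by -0.60, all 3 from dim probes. Cd8a, a T cell coreceptor chain, was at least 4.42-fold higher and was well above background only in PAD4-deficient cells. Of the 628 genes that passed the background call in PAD4-deficient cells alone, 45.1% had an at-least fold of 1.5 or more. The T cell genes Lck and Cd5 differed by -0.40 and -0.34, and Cd3e by 0.33. The T cell receptor chain Cd3g, Cd2 and the NK genes Ncr1, Gzma and Eomes were well above background on neither array. Of 12 mast cell and basophil markers, 9 were measured, with summed signals of 13415 in PAD4-deficient cells and 11007 in wild-type cells, of which Gata2, also on the stem cell list, gave 9220 and 8450. Among them 5 passed as higher and 1 as lower. For this list and the T and NK cell list, the background is 2.88% higher and 1.87% lower over all measured genes. Over the dim genes it is 6.74% and 3.5%. Of all measured genes, 55.0% lay above 0. Gzmb differed by 1.98, Hdc by 1.39 and Il4 by -0.78. The part that such cells had in the Slamf6, Slamf7, Slamf8 and Slamf9 values was not tested.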

How the data were processed

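Per the file headers, both 1-colour arrays of Agilent design 014868 lay on 1 slide and in 1 scan, were read with Feature Extraction 9.5.3.1 and carry mm8 coordinates. The submitters' processing notes name Feature Extraction 9.5. The deposited scanner files give spot intensity on a linear scale, background-subtracted and spatially detrended by the authors' software, per the file headers. The authors' value table, as deposited, holds log2 values: each column was log2 of a probe's median processed signal minus a constant of its array, within 0.01 for all 41174 probes, so its scale, centring and direction were settled. The column medians were -3.53 for the PAD4-deficient and -3.59 for the wild-type array.

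Control and outlier-flagged spots were left out. A gene's value was that of its brightest probe well above background on both arrays, in log2 of the processed signal minus the array's 75th percentile. For a gene seen on 1 array only, the bright value was compared with the dim probe's own value or, where that was lower, with the lowest value that passed the background call there. Names came from the RefSeq table of GRCm38.p6: 24367 probes matched by accession, 6307 by symbol and 2425 by synonym; 8075 kept their file name. Promoter sequences are from RefSeq (GRCm38.p6); no gene model of mm8 was used.

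The members and 11 gene lists were chosen with earlier results of these data known. Named were the members, fixed adaptor, gate and neighbour genes, Padi4, and up to 2 genes per direction and list past 1.5-fold; other list members were chosen after their values were seen. With 1 array per group no test was run, and the number of arrays limits the precision. All steps were run on simulated data whose differences were known. Python 3.11.15, numpy 2.4.6, pandas 2.3.3, statsmodels 0.14.6, matplotlib 3.10.9 and, for normexp, limma 3.58.1 in R 4.3.3 were used.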

Additional observations from a re-analysis of the deposited data

How the results depend on the processing

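No paired analysis was possible because there was 1 array per genotype, and no replicate could be left out. The differences of Slamf1, Cd48, Ly9, Cd244 and Cd84 moved by less than their scanner error under all scalings, background corrections, filters and probe rules tried; Cd244 ranged between -0.06 and 0.04 and so had no fixed sign, and Slamf1 between 0.33 and 0.48. With normexp background correction and an offset of 50, Slamf7 was higher by 0.89 on the log2 scale as measured, against 2.47. Its bound was the same 0.89, against 2.02. Slamf8 was higher by 0.93 and Slamf9 differed by -0.26. By 1.5-fold, 1 family gene was higher and 0 lower. Of all genes, 204 were higher and 132 lower, against 490 and 318. Without the offset, a setting chosen after seeing the data, Slamf9 differed by -0.53, with 2 family genes higher and 0 lower; the offset shrinks dim differences by construction. The normexp medians were 0.41 for megakaryocyte and erythroid primed genes, 0.82 for B and plasma cell, 0.21 for macrophage and dendritic cell and 0.49 for mast cell markers. With the mean over probes Slamf6 had 0.30, leaving 1 family gene higher; at 2-fold 1 family gene, Slamf8, was higher and Slamf9 lower, with 172 of all genes higher and 81 lower. Median scaling shifts all genes alike, to -0.12 for the locus neighbours and -0.078 for the stem cell list. With probes that passed the background call on either array, 960 genes were higher and 622 lower, and with no filter 2309 and 1395, as dim probes entered. The T and NK cell median, -0.02 otherwise, was then 0.33 and 0.26, and the mast cell median 0.74 with the first of these filters. Signal over background limits Slamf1, Slamf7 and Slamf9, the dimmest members.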
